A study of Mus musculus with 8 samples.

Results

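Accessible chromatin was compared between day 7 cells that overexpressed GLI1 and the day 5 cells that preceded them. These 5 of the 8 ATAC-seq libraries of the study were chosen by their labels: 2 control libraries at day 5 (D5) and 3 GLI1 libraries at day 7 (D7). ATAC-seq marks open DNA by the insertion of sequencing adapters with the Tn5 transposase. The peaks on chromosomes 1 to 19 were merged where they overlapped, which gave 38281 D5 regions and 42192 GLI1 regions.

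All libraries came from cardiac progenitors differentiated in culture from mouse embryonic stem cells, line GLI1-FTA on the A2Lox.cre strain. D5 control cells were untreated and harvested at D5. D7 GLI1 OE cells received 500 ng/ml doxycycline for 48 hours, between D5 and D7, and were harvested at D7. The 3 D7 control libraries, untreated and harvested at D7, serve here as values beside the GLI1 result. They share the line and strain, and both D7 lists are set against the same D5 list. Day and doxycycline both differ between D5 and the GLI1 cells, so their effects cannot be told apart from this pair of lists alone. The labels name a single line, and no cells of it with doxycycline but without induced GLI1 were analysed here.

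GLI1 is a zinc finger transcription factor that carries Hedgehog signals to DNA. Hedgehog ligands bind the receptor Ptch1, which frees Smo, and Smo signals through the GLI factors to their target genes. Gli1, Ptch1 and Hhip are widely used as Hedgehog targets, and Foxf1 is a target in mesoderm. In the heart field, Hedgehog signals act on second heart field progenitors, which are kept from differentiating before they join the heart.

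The 2 shortest sequences below are windows at which a GLI-like sequence lay in DNA that was open with GLI1 and not at D5. The longer ones are the bases before the start of 4 developmental genes. The windows that hold them differed in state among the D5, GLI1 and D7 control lists. All are from RefSeq (GRCm38.p6, the assembly of mm10), 5′ to 3′ on the gene's strand. Capitals mark GACCNCCCA or its reverse complement, and the longer sequences hold none of the motifs searched.
Foxa2 site, chr2:148045512-148045540, minus strand: tggggaggggTGGGAGGTCggctggcgag
Zmynd11 site, chr13:9765436-9765464, minus strand: agagtgataaTGGGTGGTCcattctttct
Foxa2, chr2:148046970-148047219, minus strand: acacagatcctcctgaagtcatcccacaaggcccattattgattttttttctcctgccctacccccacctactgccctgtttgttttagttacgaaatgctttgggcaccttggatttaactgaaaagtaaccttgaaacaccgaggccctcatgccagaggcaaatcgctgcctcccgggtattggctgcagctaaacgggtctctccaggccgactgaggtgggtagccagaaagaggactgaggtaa
Ihh, chr1:74951673-74951922, minus strand: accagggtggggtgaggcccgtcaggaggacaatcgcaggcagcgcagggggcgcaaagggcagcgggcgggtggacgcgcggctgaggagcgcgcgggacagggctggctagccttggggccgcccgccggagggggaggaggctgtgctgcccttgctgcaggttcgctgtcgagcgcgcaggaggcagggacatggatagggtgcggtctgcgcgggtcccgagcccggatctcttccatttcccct
Mesp1, chr7:79793591-79793840, minus strand: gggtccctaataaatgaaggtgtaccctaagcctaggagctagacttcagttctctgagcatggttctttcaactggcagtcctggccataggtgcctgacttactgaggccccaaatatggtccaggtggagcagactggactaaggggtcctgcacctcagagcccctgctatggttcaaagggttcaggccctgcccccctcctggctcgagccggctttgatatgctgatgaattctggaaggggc
T, chr17:8434173-8434422, plus strand: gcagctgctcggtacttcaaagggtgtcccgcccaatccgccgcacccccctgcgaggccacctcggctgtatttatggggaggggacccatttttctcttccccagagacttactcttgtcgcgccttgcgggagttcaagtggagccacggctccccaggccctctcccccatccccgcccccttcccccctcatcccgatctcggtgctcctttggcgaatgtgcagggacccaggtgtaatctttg

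Each group has 1 pooled peak list, so no difference between groups has a replicate check and no p-value is given. The GLI1 regions covered 28.5 Mb with a median width of 438 bases, the D5 regions 12.7 Mb with 238 bases, and the 37973 D7 control regions 26.6 Mb with 477 bases. Folds over background took 570 distinct values in the GLI1 list and 10244 in the D5 list, so folds of these lists are not on one scale, and the order within each list is used. The depth of the libraries is not given in the sources used here, and differences in calling, depth and day cannot be told apart. Peak numbers in the GLI1 list skipped 1071 numbers, in 389 intervals between neighbouring peaks that span 98.3 Mb. Those in the D7 control list skipped 978 and those in the D5 list 0. The names of both D7 lists carry the tag rmBLchrM, read here as removal of blacklisted regions and chromosome M. The name of the D5 list lacks it. Why numbers are missing was not tested. Of the marker promoters with a sequence window, 5 of 8 cardiac progenitor promoters were open at D5, 4 with GLI1 and 7 in D7 control. Nkx2-5, Hand2 and Tnnt2 made the difference between the D7 lists. They were low in the D7 control list, at percentiles 10.6, 7.12 and 0.595. Of 4 pluripotency promoters, 2 were open at D5 and 1 in each D7 list. Those of other cell types were 2 of 3 neural and 1 of 2 endoderm promoters in every list, and of 2 endothelial and blood promoters 1 at D5, 1 with GLI1 and 2 in D7 control; their part in the results was not tested.

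The first question was which D5 regions persisted. About as many D5 regions were kept as were not found again: 20350 of 38281, 53.2% (95% Wilson interval 52.7 to 53.7, counting error only), overlapped a GLI1 region by at least 1 base. In D7 control 19097 of the same regions, 49.9%, were kept. With the GLI1 list shortened to the number of D7 control regions the kept share was 52.3%. The GLI1 list held 2408 D5 regions that were absent from D7 control, and D7 control held 1155 that were absent from the GLI1 list. D5 regions without a GLI1 region are called closed below, a word for absence from the list. They numbered 17931, and 7191 when peaks under 200 bases, which the D7 lists do not hold, were left out. Kept D5 regions were wider, with a median of 379 bases against 177 for closed ones.

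Persistence rose with the rank of a D5 region. The D5 list was divided into deciles by fold, with decile 10 the highest. From decile 1 to decile 6 the kept share lay between 34.6% and 45%. It then rose to 57.0%, 69.3%, 81.5% and, in the highest decile, 89.7%. In the highest decile the count was 3435 of 3828 both with GLI1 and in D7 control, and 3400 of these regions were kept in both. The D7 lists therefore differed by only 35 regions each way among the highest D5 regions. Median width rose along the same order, from 144 bases in decile 1 to 622 bases in decile 10.

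**Figure D1:**
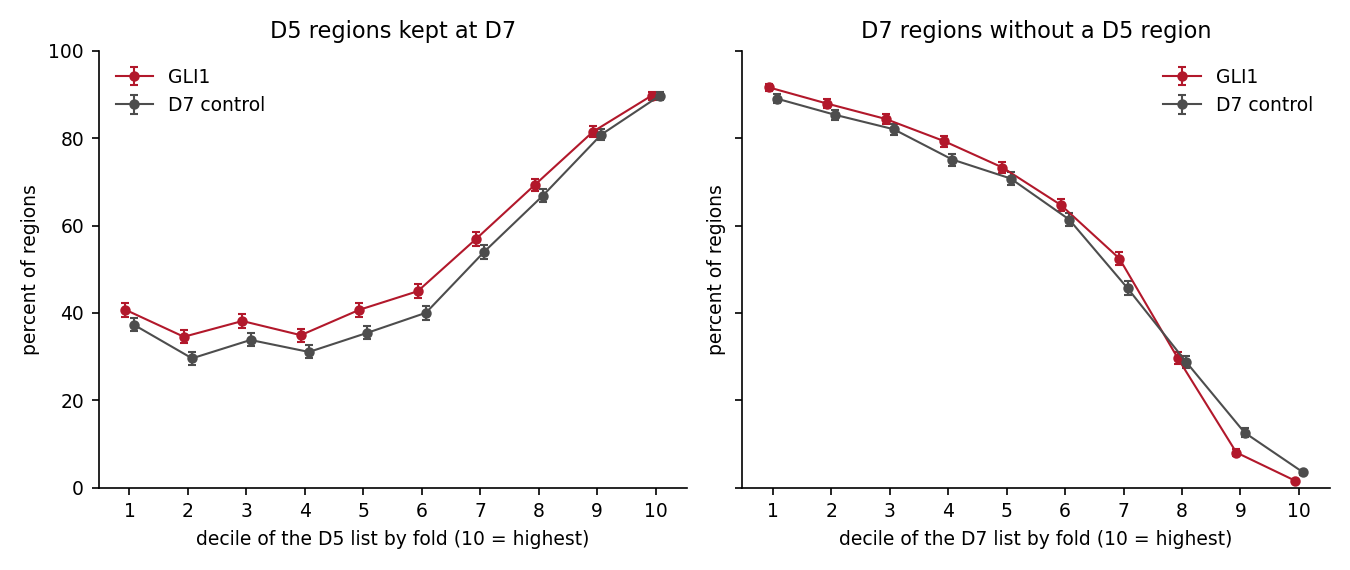
Left: percent of D5 regions that overlap a D7 region, by decile of the D5 list. Right: percent of D7 regions without a D5 region, by decile of each D7 list. Points are shares and bars are 95% Wilson intervals. Kept shares end at 89.7% for both D7 lists, and the opened share of the GLI1 list falls from 91.6% to 1.66%.

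Many of the highest D5 regions that closed lay where peak numbers of the GLI1 list were missing. These intervals held 1039 of the 17931 closed regions, 5.79%, and 39 of the 20350 kept ones, 0.192%. In the highest D5 decile they held 156 of 393 closed regions, 39.7%, and they held 10 of the 11 highest closed regions. The highest of all, at chr3:5860541-5860840, had a D5 fold of 37.2 and no gene within 100 kb, and others in such intervals lay near Col19a1, a collagen gene, and in Lars2, a mitochondrial leucyl-tRNA synthetase gene. Zc3h7a, Filip1l and Tra2a, a splicing factor gene, were the nearest genes of 3 more of the 8 highest closed regions, all in such intervals. Of these 8 regions, 1 was outside them, at chr6:3201377-3201624 with a fold of 36.1. Outside these intervals the kept share was 54.6% of all regions, and 3433 of 3670, 93.5%, in the highest decile. Among closed regions outside them, chosen after their values were seen, Tecrl, a gene expressed in heart muscle, held a D5 region at chr5:83351630-83352007 with a fold of 18.7, which ranked 29 in the D5 list.

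The highest kept D5 regions were mostly at gene ends, meaning within 1 kb of either end of a gene. Bbs4 and Bbs7, both of a complex that carries cargo in primary cilia, held D5 regions with folds of 21.2 and 20.3. Those regions overlapped GLI1 regions at percentiles 90.9 and 86.3 of the GLI1 list. The other 4 of the 6 highest were in Wdr17, next to Zfp960, a zinc finger gene, in Pik3c3, a lipid kinase gene of autophagy, and next to Gatb. Their percentiles in the GLI1 list were 88.3, 99.3, 85.2 and 95.8. All 6 were also in D7 control, at percentiles of 84.2 to 95.8.

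Location separated kept from closed regions. Within 1 kb of a gene end 11400 of 12452 D5 regions, 91.6%, were kept with GLI1. Inside genes the share was 42.0%, outside genes within 100 kb 33.4%, and farther than 100 kb from any gene 17.6%. The D7 control values were 89.4%, 38.3%, 29.1% and 14.7%, in the same order. The difference by location was also present within ranks: in the highest 2 deciles of the D5 list 96.5% of 5302 regions at gene ends were kept, but 26.6% of the 361 over 100 kb away. Even in deciles 1 to 5, 82.1% of the D5 regions at gene ends were kept.

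**Figure D2:**
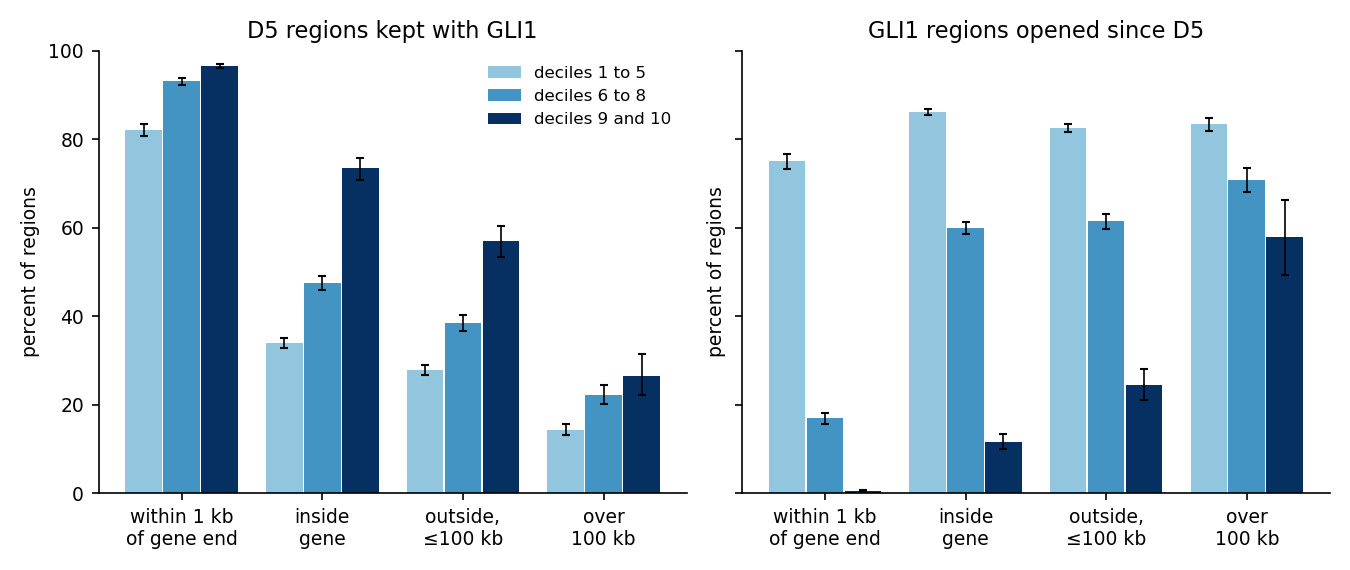
Percent of D5 regions kept (left) and of GLI1 regions opened (right), by position relative to protein-coding genes and by deciles of the list's own fold order; bars show 95% Wilson intervals. At gene ends 96.5% of the D5 regions in deciles 9 and 10 are kept, and over 100 kb from genes 26.6%.

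Order among kept regions was partly shared. Overlapping D5 and GLI1 regions were paired, with each region used once. Where several D5 regions met 1 GLI1 region, the D5 region with the highest fold was taken. Over the 17953 pairs, Spearman's rho of the within-list folds was 0.67. The points share their libraries and the width of open DNA, so this is a description. It was 0.64 over 9967 pairs at gene ends and 0.19 over 788 pairs more than 100 kb away. Of the 1795 pairs in the highest D5 decile of pairs, 516, 28.7%, were in the highest GLI1 decile too.

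The second question was which regions and genes opened. GLI1 regions without a D5 region, called opened, numbered 24180 of 42192, 57.3% (56.8 to 57.8), and in D7 control 21051 of 37973, 55.4%. Most opened regions were low in the GLI1 list. They had a median fold of 4.04 and a median width of 291 bases, against 16.0 and 966 bases for GLI1 regions with a D5 region. The opened share was 91.6% in the lowest GLI1 decile and 1.66% in the highest, 70 of 4219 regions. In the D7 control list 135 of 3797 regions of the highest decile, 3.56%, lacked a D5 region. Of the 24180 opened GLI1 regions, 9850 were also in D7 control and 14330 were not, with median folds of 4.91 and 3.86.

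Among the 70 opened regions of the highest decile, 62 also met a D7 control region. These regions were chosen for a high GLI1 fold, and 10 of the 62 still had the higher fold in the D7 control list. The highest lay next to Ak1, an adenylate kinase gene, at chr2:32620130-32622129, with a GLI1 fold of 63.9 and a D7 control fold of 47.7. Ptch1, the Hedgehog receptor gene, had its region at chr13:63572096-63574064, across the start of the gene, which lies on the minus strand, with a GLI1 fold of 55.8 and a D7 control fold of 5.22. The Ptch1 region thus ranked 1438 of 42192 with GLI1 and stood at percentile 43.6 of the D7 control list. Boc, a Hedgehog co-receptor gene, held an opened region at chr16:44537981-44539029 with folds of 44.9 and 6.48. Gas1, another Hedgehog co-receptor gene, had one 0.691 kb away at chr13:60172787-60174482 with folds of 36.2 and 3.96. Another Gas1 region went the other way. The region at the Gas1 promoter window, present at D5 too, had a fold of 34.4 with GLI1 and 70.0 in D7 control.

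Of the 70 opened regions of the highest decile, 7, 10%, were nearest to a gene of the 18 gene lists used below. These genes were Boc, Fgfr2, Foxd1, Foxp1, Gas1, Ptch1 and Twist2. Another 10 regions had no gene within 100 kb. The same share over all GLI1 regions is not given here. Some developmental transcription factor genes were among the nearest genes. Foxd1, a forkhead gene, had one 34.8 kb away at chr13:98390282-98392375 with a fold of 60.9 with GLI1 and 18.7 in D7 control. Lmx1b, a LIM homeobox gene, held one at chr2:33581029-33583718 with 57.9 and 15.8, and another at chr2:33591973-33593833 with 53.9 and 58.9, the higher value in D7 control. Foxp1, a forkhead gene active in the heart, held one at chr6:99101139-99102191 with 39.1 and 14.0. Twist2, a mesenchymal basic helix-loop-helix gene, had folds of 42.0 and 29.9, and Fgfr2, an FGF receptor gene, 43.0 and 11. Col18a1, which encodes collagen XVIII, had one 31.5 kb away with 57.0 and 9.18, and Limch1 held one with 54.6 and 6.12. Each list was called on its own background.

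Of the 8 highest opened regions, 2 had no D7 control region. These were in Il16, an interleukin gene, at chr7:83737213-83739260 with a fold of 62.5, and 77.8 kb from Hsd17b3, a steroid dehydrogenase gene, at chr13:63979735-63981230 with a fold of 59.7. No cause of these 2 was tested.

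Regions were then counted for the gene nearest to their summit within 100 kb. The induced gene came first. Gli1 (chr10:127329882-127341579) had 6 opened, 0 closed and 3 kept regions. The opened ones lay inside the gene, with folds of 9.30 to 19.3, and none was in D7 control. The kept one at the high-coordinate end of the gene, chr10:127338678-127342811, had a fold of 31.9 with GLI1 and 13.3 in D7 control. The D5 regions under it stood at percentiles 25.4 and 63.8 of their list. Whether reads of the opened Gli1 regions come from the gene itself or from an introduced copy was not tested.

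Ptch1 had 12 opened, 1 closed and 4 kept regions, and 7 opened and 1 closed in D7 control. All 4 kept D5 regions of Ptch1 lay inside the gene, at percentiles of 16.1 to 71.2 of the D5 list. With GLI1 the regions over 3 of them had folds of 49.7 and 59.5, and in D7 control 36.4 and 58.3. The body of Ptch1 was thus high in both D7 lists. Farther out, from 38.8 to 97.8 kb away, 6 opened regions had folds of 3.16 to 15.4, and 5 of them were absent from D7 control.

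Hhip, whose product binds and restrains Hedgehog ligands, had 7 opened, 2 closed and 2 kept regions with GLI1, and 0 opened in D7 control. Its opened regions were low, with folds of 2.63 to 6.67. A D5 region inside Hhip, at chr8:80049215-80049783 and percentile 54.5 of the D5 list, met a GLI1 region with a fold of 19.1 and no D7 control region. Another D5 region inside Hhip, at chr8:80032692-80032815, went the other way: it met no GLI1 region and a D7 control region with a fold of 3.24.

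Foxf1, a forkhead gene of mesenchyme, had 6 opened, 0 closed and 1 kept region with GLI1, and 0 opened in D7 control. The highest opened one lay 10.9 kb from Foxf1 at chr8:121072985-121074068 with a fold of 31.9. The kept one covered the gene's edge, with 50.4 with GLI1 and 10.8 in D7 control.

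**Figure D3:**
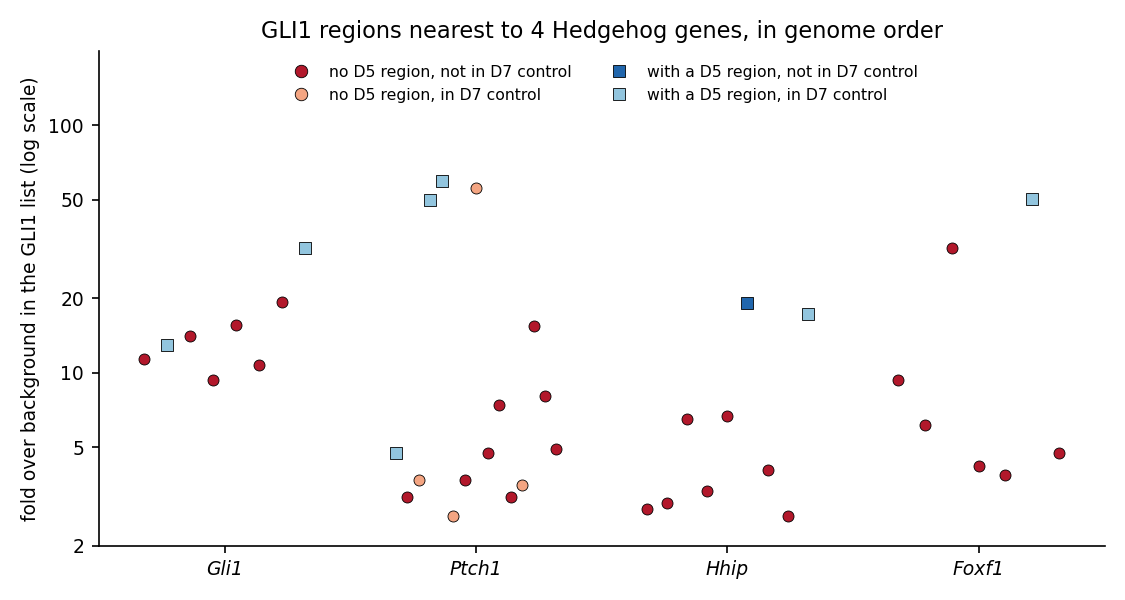
Fold over background, on a log axis, of each GLI1 region nearest to Gli1, Ptch1, Hhip or Foxf1, in genome order within a gene; circles have no D5 region and squares have one, and pale symbols are also in D7 control. The 6 opened Gli1 regions lie between 9.30 and 19.3, and the opened Ptch1 region at 55.8 stands far above the other opened ones of that gene.

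Across 15593 genes with regions, 6390 had more opened than closed regions, 41%, and 3675 had more closed than opened, 23.6%. The median difference was 0. All genes together had 21258 opened and 14109 closed regions with GLI1, against 18000 and 15228 in D7 control, so more opened and fewer closed regions with GLI1 than in D7 control was the pattern of the whole list. Of the 19 annotated genes of the Hedgehog list, 12 had more opened and 3 more closed regions. The ligand gene Ihh had 2 opened and 0 closed, and 0 opened in D7 control. The signal transducer Smo had 2 opened with GLI1 and 0 in D7 control. Gli2, the main activator of the pathway, had 14 opened and 5 closed with GLI1, and 6 and 3 in D7 control. Gli3, which acts mostly as a repressor, had 4 opened and 11 closed, close to its 3 and 12 in D7 control. Disp1, needed for ligand release, had 0 opened with GLI1 and 4 in D7 control. As a list the Hedgehog genes had 76 opened, 39 closed and 42 kept regions, against 57, 38 and 43 in D7 control.

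Forkhead genes had the largest excess of opened over closed regions of the 18 gene lists in these counts, which grow with the length of a list. The forkhead list was also the longest, with 35 genes. Its median difference per gene was 2, against 2.5 for second heart field genes. Its opened share of GLI1 regions was 72.0%, against 74.5% for retinoic acid genes and 55.4% over all genes with regions. Every list but housekeeping, at 42.3%, was above the share over all genes. With GLI1 the forkhead genes had 149 opened, 48 closed and 69 kept regions, against 107, 58 and 59 in D7 control. More opened than closed regions were found at 26 of 35 forkhead genes, and at 41% of all genes with regions. Foxp1 had 28 opened and 7 closed regions, against 14 and 8 in D7 control. Foxp2 had 12 and 3, against 5 and 2. Foxa2, a factor of endoderm and floor plate, had 9 opened, 5 closed and 4 kept regions with GLI1, but 0 opened, 7 closed and 2 kept in D7 control. Foxb1 went the other way, with 1 opened and 5 closed, and Foxe3 had 0 and 1.

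Second heart field genes had 114 opened, 43 closed and 54 kept regions, against 78, 45 and 52 in D7 control, with 14 of 24 genes showing more opened ones. Tbx1, a T-box factor of the pharyngeal and second heart field, had 11 opened and 1 closed with GLI1 and 5 and 1 in D7 control. Bmp7, a signalling ligand, had 14 and 2 against 13 and 1. Hand2 had 2 opened and 4 closed, and Tbx3 5 and 7.

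Genes of the differentiated muscle cell came next. The contractile and calcium handling list had 33 opened, 40 closed and 19 kept regions, and 11 of 25 genes had more closed ones; in D7 control it had 40, 36 and 23. Its median difference of −1 was below that of all genes, and its excess of closed regions turned into an excess of opened ones with a −log10 q threshold of 5 and without peaks under 200 bases. Ryr2, the calcium release channel, had 1 opened and 7 closed, against 3 and 8 in D7 control. Ldb3, of the Z-disc, had 0 and 3 in both. Tpm1, a tropomyosin, had 7 opened and 3 closed with GLI1 and 2 and 2 in D7 control. Myl7, the atrial light chain, had 0 opened and 1 closed region with GLI1 and 2 opened and 0 closed in D7 control.

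Cardiac transcription factor genes were near balance, with 64 opened, 52 closed and 43 kept regions and 61, 53 and 42 in D7 control. Prdm16 had 12 opened and 2 closed, and Tead1 10 and 3. Zfpm2, a partner of GATA factors, had 3 and 10, Tbx5 1 and 5, and Tbx20 0 and 4. Their D7 control counts were 2 and 10, 2 and 5, and 1 and 5. With a −log10 q threshold of 5 the excess of closed regions at Zfpm2 turned into one of opened regions, as it did at Tbx3, Eomes and Cxcr4.

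Of the lists for other cell types, neural progenitor genes had 70 opened, 23 closed and 40 kept regions, with 16 of 21 genes showing more opened ones and D7 control at 65, 31 and 32. Zic1, a neural zinc finger factor, had 4 opened and 0 closed regions with GLI1, and 0 and 2 in D7 control. Nkx2-2, a Hedgehog-responsive factor of the ventral neural tube, had 5 and 0 with GLI1 and 4 and 4 in D7 control. Endoderm genes had 46 opened and 24 closed, against 26 and 29 in D7 control. Prox1 had 11 and 0, against 6 and 1, and Cxcr4 4 and 6. Endothelial and blood genes had 64 opened and 33 closed, against 49 and 36. Fli1 had 11 and 0 in both D7 lists, and Erg had 11 and 1 with GLI1 and 3 and 1 in D7 control.

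Pluripotency genes had 39 opened, 33 closed and 25 kept regions, against 30, 31 and 27. Zfp42, a marker of the naive state, lost all 4 of its D5 regions in both D7 lists, and Dppa4 all 3. Sox2, shared with neural cells, had 9 opened and 1 closed. Primitive streak genes had 31 opened, 33 closed and 26 kept regions, with 9 of 20 genes showing more closed ones, and D7 control at 23, 34 and 25; this small excess of closed regions also turned with a −log10 q threshold of 5 and without peaks under 200 bases. Pdgfra, a mesoderm receptor, had 5 opened and 0 closed, and Eomes 2 and 4.

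The remaining lists had more opened than closed regions in both D7 lists. Paraxial mesoderm genes had 60 opened and 26 closed with GLI1, smooth muscle and epicardial genes 61 and 27, Notch genes 58 and 28, BMP and TGF-beta genes 87 and 35, Wnt genes 97 and 41, FGF genes 54 and 32 and retinoic acid genes 70 and 29. Opened counts in D7 control were 63, 56, 66, 85, 83, 50 and 61 in the same order. Pdgfrb, a pericyte receptor, had 8 opened and 0 closed regions with GLI1 and 5 and 0 in D7 control. Rxra, a retinoid receptor, had 15 and 2 against 9 and 3, and Fzd2, a Wnt receptor, 9 and 0 against 5 and 0. Smad3, which carries TGF-beta signals, had 13 and 1 against 17 and 2, and Notch1 8 and 1 against 11 and 2, the larger opened counts being in D7 control. Bmp2 had 1 and 7 in both D7 lists, Hes1, a Notch target, 11 and 1 in both, and Meox1, a somite factor, 7 and 0 in both. Housekeeping genes kept 74.1% of their D5 regions, against 58.1% over all genes with regions.

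**Figure D4:**
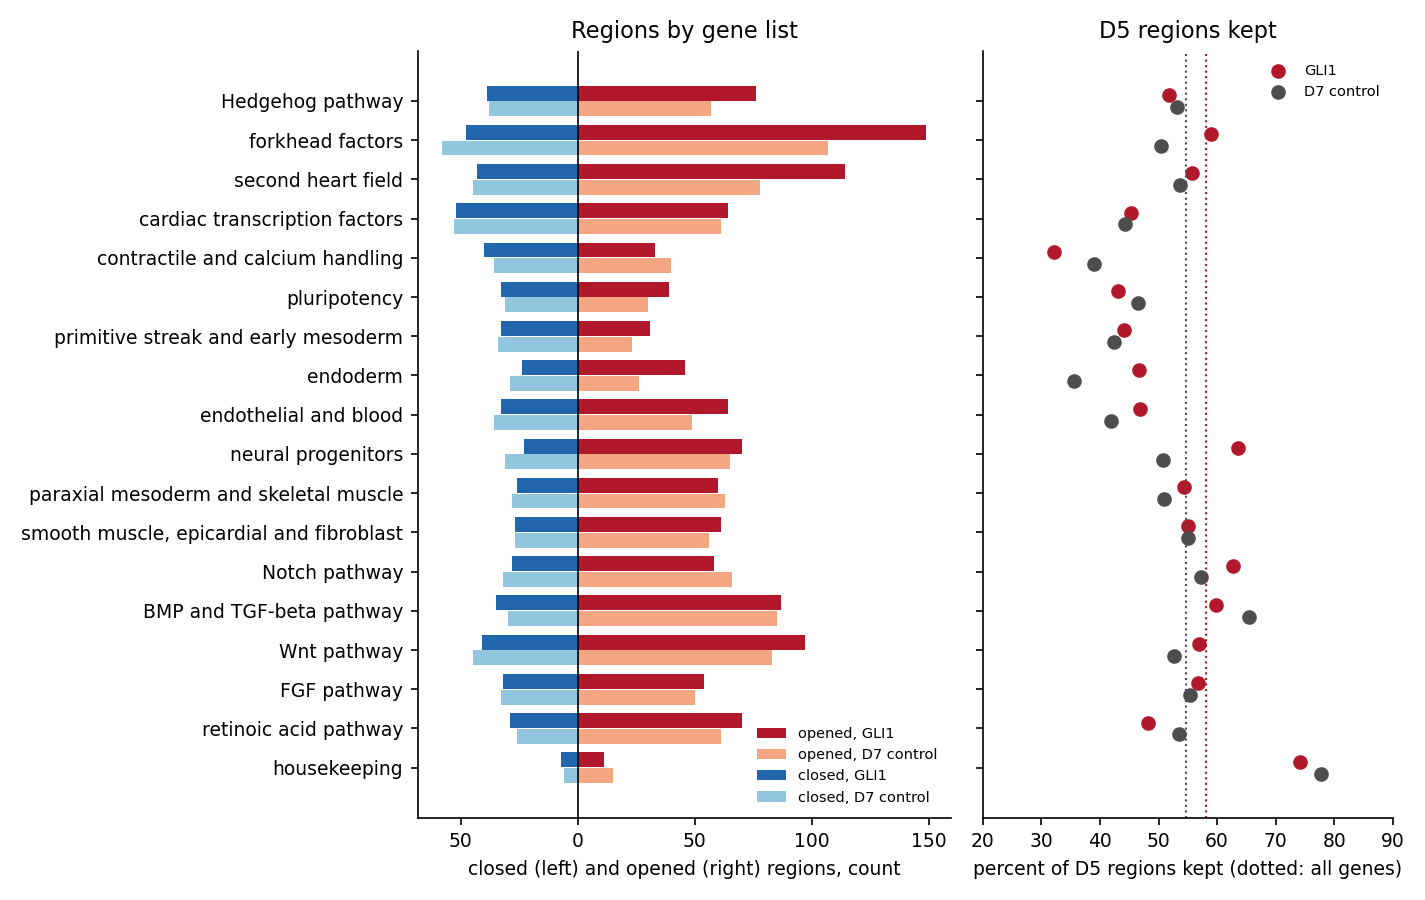
Left: opened (right of 0) and closed (left of 0) regions of each gene list, for GLI1 and D7 control, each against the same D5 list. Right: percent of the list's D5 regions kept, with dotted lines for all genes. Forkhead genes, the longest list at 35 genes, have the most opened regions with GLI1 (149), and the contractile list keeps the smallest share of D5 regions (32.2%).

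Over all genes the largest excess of opened regions was at Gse1, with 51 opened, 3 closed and 14 kept regions, and 46 opened in D7 control. Septin9, a cytoskeletal gene, had 22 and 3, Thsd4 18 and 1, Maml3, a Notch coactivator, 23 and 7, and Col13a1, a collagen gene, 17 and 1. Thsd4 had 11 opened regions in D7 control, and Trabd2b 10 against 19 with GLI1. Tns1, of focal adhesions, had 21 opened in D7 control against 18 with GLI1. Several of these values depended on the gene assignment: with each region assigned to the nearest gene end, opened minus closed went from 48 to 20 at Gse1, from 21 to 7 at Foxp1, from 17 to 3 at Thsd4, from 16 to 10 at Maml3, from 16 to 4 at Tns1 and from 15 to 1 at Wwox, a gene at a fragile site. It was 19 at Septin9, 16 at Col13a1 and 14 at Trabd2b by either assignment.

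The largest excess of closed regions was at long genes, several of them known from neurons. Macrod2 had 8 opened and 31 closed, Syt1, a synaptic vesicle calcium sensor, 1 and 16, Csmd1 5 and 17, Cntn5, a neural adhesion gene, 6 and 18, Cntnap2 6 and 17 and Tenm2 14 and 25. Their D7 control closed counts were 35, 18, 18, 18, 17 and 25. These genes span 513 to 2241 kb, and longer genes collect more regions by this count. By nearest gene end the difference was −4 at Macrod2 and Tenm2, −14 at Syt1, −1 at Csmd1, −3 at Cntn5 and −6 at Cntnap2. For Tenm2 and Frmd4a (7 and 19) the excess turned into one of opened regions without peaks under 200 bases. Genes with the most kept regions were Gse1 with 14, Pde4d, a cyclic AMP phosphodiesterase, with 14, Trabd2b and Cxxc5, a Wnt regulator, with 13 each, Pknox2 with 12 and Nfia with 11.

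**Figure D5:**
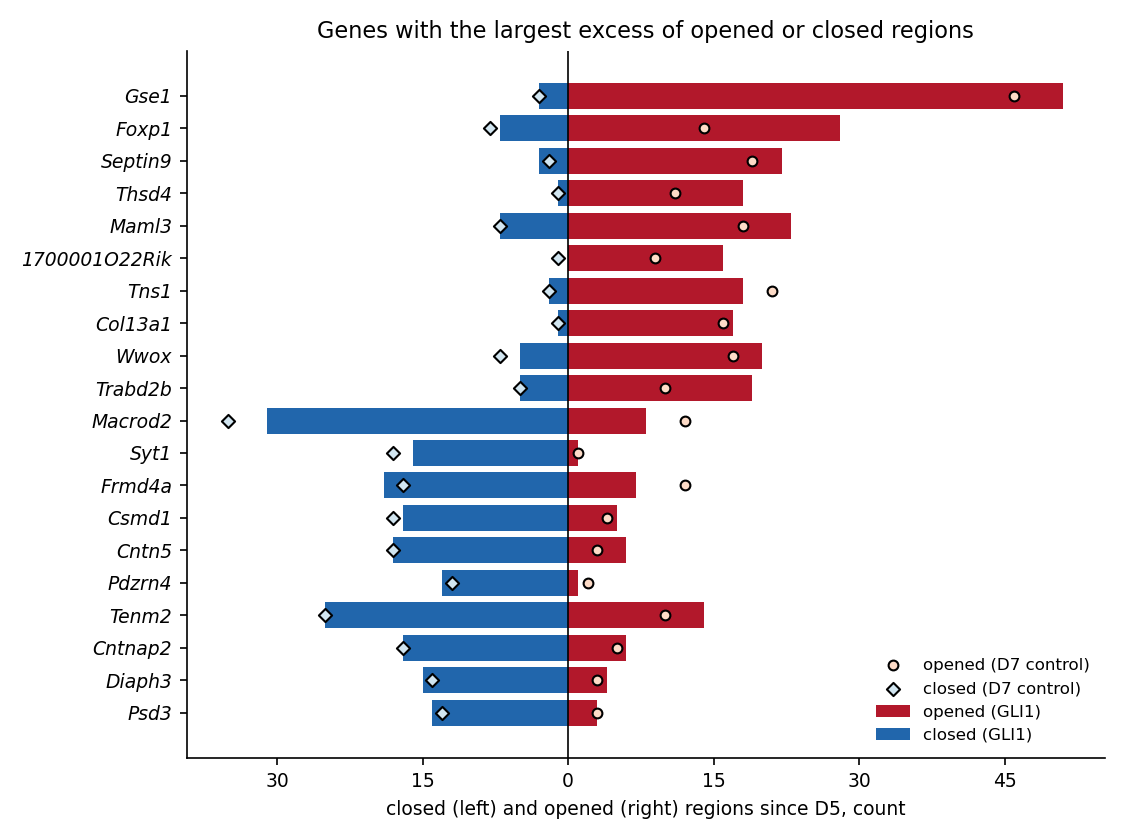
Opened (right) and closed (left) regions since D5 for the 10 genes of greatest opened excess and the 10 of greatest closed excess; bars are GLI1 and symbols are D7 control. Gse1 reaches 51 opened regions with GLI1 and 46 in D7 control, and Macrod2 31 closed with GLI1 and 35 in D7 control.

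Promoters gave a state for each gene that does not grow with its length. RefSeq windows from 250 bases before to 50 after a start were used for 16456 of 20661 protein-coding genes. A promoter was called open where any of its windows met a region. Promoters of 891 genes, 5.41%, opened between D5 and GLI1, and those of 493, 3%, closed. Of 10872 windows open at D5, 94.5% were open with GLI1 and 93.2% in D7 control. Of the 1344 opened windows, 78.3% were open in D7 control too. Only 739 of the 1344 lay in a GLI1 region that met no D5 region at all. The others lay in GLI1 regions that met a D5 region outside the window. The opened count rose to 1456 genes with a −log10 q threshold of 5. The closed count fell to 250 genes without D5 regions at missing peak numbers of the GLI1 list, which held 280 of 596 closed windows and 94 of the 95 closed windows in the highest D5 decile.

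Promoters of Hedgehog and heart field genes that opened included Ihh, whose printed bases lay in a GLI1 region with a fold of 8.25 and in no D5 or D7 control region. The promoter of Dhh, another Hedgehog ligand gene, was open in D7 control alone, with a fold of 3.78 at percentile 22.3. Of 15 Hedgehog genes with a window, 10 were open in both lists, 3 opened (Ihh, Ptch1 and Hhat) and 0 closed. Ptch1 and Hhat opened in D7 control as well. With GLI1 the opened windows of Ptch1 and Hhat lay in regions that met a D5 region outside the window. The Ptch1 window, chr13:63565686-63565985, lies inside the gene. It does not cover the region across the gene's start, chr13:63572096-63574064, which had folds of 55.8 with GLI1 and 5.22 in D7 control. Tbx1 and Wnt11, a Wnt ligand of the outflow tract, opened in both D7 lists. The GLI1 fold at the higher Tbx1 window was 17.9 and at the higher Wnt11 window 14.0, against 11.5 and 13.0 in D7 control. Foxa1 and Foxa3 opened in both D7 lists. Foxa2 was open throughout at 1 of its 3 windows. The other windows, printed above in part, were open with GLI1 alone. They lay in a GLI1 region with a fold of 20.4 that also met a D5 region outside them.

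Of 16 primitive streak and early mesoderm genes with a window, 2, Mesp1 and T, were open with GLI1 and not in D7 control, and the reverse held for none. The GLI1 list is the longer one, with 42192 regions against 37973. Over all genes 94.5% of windows open at D5 were open with GLI1 and 93.2% in D7 control. The same count over all genes is not given here, so no difference particular to streak genes is drawn. Mesp1, the first marker of cardiac mesoderm, was open with GLI1, with a fold of 4.04 at percentile 31.1, and in neither other list. T, the primitive streak factor Brachyury, was open at D5 with percentile 60.4 and with GLI1 with percentile 15.1, and not in D7 control. At a −log10 q of at least 5, T was no longer open with GLI1, and Mesp1 still was. Evx1, another streak gene, closed in both D7 lists. Bmp5, Wnt1, Dbx1 and Fgf9, all signalling or patterning genes, opened with GLI1 and were not open in D7 control. Their percentiles in the GLI1 list were 31.1, 34.4, 27.5 and 75.7. Other list genes went the other way. Neurog2, of the neural list, Myog and Tal1 were open in D7 control alone, at percentiles 56.2, 32.3 and 14.4 of that list. Tfcp2l1, of pluripotent cells, and Zic1 were open at D5 and with GLI1 and not in D7 control.

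Cardiac promoters went both ways, and those that differed between the D7 lists were close to the calling threshold. Of 11 cardiac transcription factor genes with a window, 3 opened and 1 closed. Of 24 contractile and calcium handling genes, 2 opened and 2 closed. Over all genes 5.41% opened and 3% closed. Prdm16, Hopx and Des opened in both D7 lists, with GLI1 folds of 21.2, 7.37 and 7.37. Nkx2-5, the central cardiac homeobox factor, was open at D5 with percentile 43.2 and in D7 control with percentile 10.6, and not with GLI1; its D5 −log10 q of 4.98 was just under 5. Tnnt2, cardiac troponin T, and Hand2 were open in D7 control alone, at percentiles 0.595 and 7.12. Nppb, a natriuretic peptide gene, and Myh7, a myosin heavy chain gene, closed in both D7 lists, from D5 percentiles of 72.9 and 1.58. Tcf21, an epicardial factor at D5 percentile 4.06, closed with GLI1 and was open in D7 control. Irx4 and Tnnc1 opened with GLI1 at percentiles of 0.62 and 11.1 and were not open in D7 control; with a −log10 q threshold of 5 neither was called. Isl1, Mef2c, Pdgfra and Kdr were open in all 3 lists.

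Motif matches in promoter windows were few. GACCACCCA, the consensus of GLI factors, was in 35 of 20084 windows on either strand, 0.174%, and in 1 of the 1344 opened windows, that of Zmynd11 printed above. With any base in the fourth position, GACCNCCCA, which includes the first motif, it was in 1.0% of all windows, 1.26% of opened ones (0.791 to 2.02) and 0.671% of closed ones (0.261 to 1.71). The intervals overlapped. TGTTTAC, bound by forkhead factors, was in 3.04% of all, 3.20% of opened and 3.02% of closed windows, and AGATAA, bound by GATA factors, in 9.57%, 8.71% and 8.22%. Windows open at both stages held AGATAA less often, in 4.50%, and windows open at neither more often, in 16.4%. Zmynd11 was open at D5 at another of its windows, and its printed window was open in D7 control as well.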

How the data were processed

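ATAC-seq peaks of mouse cardiac progenitors were analysed as 1 pooled list per group, from 2 D5 control, 3 D7 GLI1 OE and 3 D7 control libraries. Assigning the D7 control list to its group rests on the name it carries. Bowtie2 2.3.2, SAMtools 1.5, Picard, MACS2 2.1.1 and mm10 are named, per the submitters' processing notes; their order and settings are not given in the sources used here. The authors' deposited lists give each peak a fold over background (a ratio), a −log10 p, a −log10 q, a score and a summit offset. These are the authors' values and served only to describe, order and filter peaks within a list.

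Overlapping peaks were merged, a region taking the highest fold of its peaks, and regions sharing at least 1 base counted as overlapping (Python 3.11.15, pandas 2.3.3; checked with bedtools 2.31.1 and tested on simulated data). A percentile is the position of a fold in its own list, ties averaged. Each summit was assigned to the nearest of 20661 protein-coding RefSeq genes (GRCm38.p6) within 100 kb. The promoter table holds no window on chromosome 18, and 249 of 349 list genes have a window. Exons and strand are not in the gene table used here. Intervals are Wilson 95% intervals of counting error.

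Named genes were Gli1, Ptch1, Hhip and Foxf1, the 10 largest and 10 smallest opened minus closed counts, the 6 most kept, the genes at the 8 highest opened, 8 highest closed and 6 highest kept regions, and the 2 most extreme genes each way of each list. Other list genes were named after their values were seen, and not every gene that the rule names is reported here. The groups compared, gene lists and rules were chosen with earlier results of these data known. Alternatives varied the q threshold, peak width, overlap, list length, summit overlap and gene assignment.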

Additional observations from a re-analysis of the deposited data

How the results depend on the processing

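The kept share of D5 regions, 53.2%, was 65.2% at a −log10 q of at least 5, 68.4% with peaks of at least 200 bases, 52.4% with an overlap of 50% of the shorter region and also with equal list lengths, 54.7% with regions within 500 bases, 52.0% by summits, 54.6% without D5 regions at missing peak numbers and 52.3% with the GLI1 list cut to the D7 control number; the last 2 of these settings, and the order by −log10 q, were chosen after seeing the data. The opened share, 57.3%, was 58.8%, 65.4%, 57.9%, 53.8%, 52.4% and 61.2% under the q threshold, width, 50% overlap, equal length, 500 base and summit settings, and 53.5% with the shortened GLI1 list. In the highest decile the kept share was 93.5% without missing-number regions and 94.8% by −log10 q, and the opened share was 1.20% with equal lengths, 2.16% by width and also by summits, and 1.16% with the shortened list. In the lowest decile the kept share was 58.9%, 39.1%, 43.8%, 51.6%, 39.0% and 31.0% under the q, 50% overlap, 500 base, width, summit and −log10 q order settings, and the opened share 93.1%, 80.8%, 88.2%, 95.6%, 94.6% and 88.3% under the 50% overlap, 500 base, equal length, width, summit and shortened settings. Closed regions fell to 7663 under the q threshold and 7191 by width, where fewer D5 regions entered. Genes with an opened promoter numbered 1456 under the q threshold and 1344 by width, and genes with a closed one 250 without missing-number regions.

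Of 95 named genes, 64 kept the sign of opened minus closed under all 9 settings run, and 78 never reversed it, since it was 0 for others under some setting. Under the q threshold the sign reversed to 4 for Tenm2, 8 for Pde4d and Nfia, 2 for Tbx3, Eomes and Flt1, and 1 for Zfpm2, Evx1, Cxcr4, Msx1, Wt1, Maml2 and Axin2. By width it reversed to 1 for Frmd4a, Tbx3, Tek and Rbpj, 7 for Tenm2, 10 for Pde4d, 3 for Nfia and Maml2, 2 for Eomes, Cxcr4, Flt1 and Msx1, and 5 for Rarb. Tbx3 reversed to 1 within 25 kb, and Maml2 to 2 by nearest gene end and without missing-number regions. The contractile list reversed to 8 under the q threshold and 13 by width, and the primitive streak list to 12 and 18. The cause of these reversals was not tested. No paired analysis was possible because peaks were called on the pooled libraries of a group, and leaving out a library was not possible either. Without read totals, depth limits what absence from the D5 list shows.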

Other observations

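Counts of opened and closed regions were also uneven along chromosomes. Over 2395 windows of 1 Mb with regions of these classes, the median of opened minus closed was 0. The largest excess of opened regions was in chromosome 8 from 120 to 121 Mb, which holds Gse1 and Irf8, with 85 opened, 7 closed and 25 kept regions. The next window, from 121 to 122 Mb, holds the forkhead cluster Foxf1, Foxc2 and Foxl1 and had 56 opened, 8 closed and 20 kept. The window of Gli1, chromosome 10 from 127 to 128 Mb, was among the 8 largest, with 48 opened, 4 closed and 32 kept. At the other end, chromosome 13 from 118 to 119 Mb, with Fgf10, a ligand of the second heart field, had 6 opened and 21 closed, and chromosome 2 from 133 to 134 Mb, with Bmp2, had the same counts. A cluster of zinc finger genes on chromosome 4 from 147 to 148 Mb had 1 opened and 19 closed regions. These windows were named after their values were seen.

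The kept share of D5 regions with GLI1 ranged from 46.1% on chromosome 3 to 63.7% on chromosome 19, and it was above the D7 control share on all 19 chromosomes. The opened share ranged from 51.6% on chromosome 7 to 60.7% on chromosome 12.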
